A study of Mus musculus with 6 samples.

Results

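The 9 genes described here encode transcription regulators that work in spermatogonia, the cells at the base of the testis tubule from which sperm arise. They are Zbtb16, Taf4b, Foxo1, Glis3, Bnc1, Dmrt1, Sohlh1, Sohlh2 and Neurog3, taken by name out of 18194 measured genes, and all 9 had a probe set that carried their symbol alone. In all, 17 probe sets belonged to them, and for each gene the probe set with the highest mean over the arrays was used. Sohlh1, Sohlh2, Dmrt1, Glis3 and Bnc1 had only 1 probe set each, so their values could not be checked against another.

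RNA came from 6 samples of cultured mouse cells, measured on Affymetrix arrays, with 2 arrays for each of 3 kinds of colony. The kinds are SSC, labelled as unipotent germ-line cells, iSSC, labelled as an intermediate state, and mSSC, labelled as multipotent. All groups share their origin: testis cells of male ICR mice aged 3 to 5 days, with no transgene or deletion named, grown on feeder layers of embryonic fibroblasts whose division had been stopped with mitomycin, and colonies picked by hand for their shape. Clumps from passages 0 to 1 and 9 to 10 were moved onto feeders, and flattened or embryonic stem cell-like colonies either stayed in germ stem cell medium or went into a medium for embryonic stem cells. Which array had which passage or medium is not given here, so kind of colony and medium cannot be told apart. Nothing in the labels tells whether 2 arrays of one kind stem from different cultures or mice, and p-values then measure only the spread between these samples, which may be technical.

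Spermatogonia either renew themselves or commit to differentiation, and this choice is set by a small group of transcription factors. Zbtb16 (also called Plzf) is a zinc finger repressor needed to keep stem cells from being used up, Foxo1 is a forkhead factor held out of the nucleus by Akt signalling, and Taf4b is a subunit of the general factor TFIID that is enriched in germ cells. Glis3 and Bnc1 are zinc finger proteins needed in early postnatal germ cells, while Dmrt1 decides between mitosis and entry into meiosis. Sohlh1 and Sohlh2 are basic helix-loop-helix factors that pair with each other and drive differentiation, and Neurog3, another member of that class, marks undifferentiated spermatogonia that are leaving the stem cell pool.

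Helix-loop-helix factors bind short palindromes called E-boxes, so the promoters of the Sohlh pair are shown. Promoter windows of 6 of the 9 genes were in the RefSeq table of the mouse build GRCm38.p6, each running from 250 bases before to 50 bases after the transcription start. The window of Sohlh1 lies on the minus strand at chr2:25847199-25847498 and that of Sohlh2 on the plus strand at chr3:55181794-55182093. Both are printed 5′ to 3′ along the gene, with every CACGTG in capitals.
Sohlh1: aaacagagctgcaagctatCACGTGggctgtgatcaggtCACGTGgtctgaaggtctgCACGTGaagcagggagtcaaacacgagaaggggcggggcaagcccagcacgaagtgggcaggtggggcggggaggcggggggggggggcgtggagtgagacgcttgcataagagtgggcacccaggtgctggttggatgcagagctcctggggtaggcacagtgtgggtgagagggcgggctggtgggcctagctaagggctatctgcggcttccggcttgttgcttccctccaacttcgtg
Sohlh2: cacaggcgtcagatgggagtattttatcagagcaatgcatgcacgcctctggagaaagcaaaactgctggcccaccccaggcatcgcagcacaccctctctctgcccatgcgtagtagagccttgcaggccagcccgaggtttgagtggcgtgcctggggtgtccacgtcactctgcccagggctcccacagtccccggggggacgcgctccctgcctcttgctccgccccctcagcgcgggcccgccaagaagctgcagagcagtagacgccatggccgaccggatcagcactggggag
CACGTG reads the same on both strands. Sohlh1 held it 3 times, with first bases 231, 211 and 192 bases before the start, and Sohlh2 and the other 4 windows held none. Among the 32851 windows of this length in the table, CACGTG occurred at least once in 7.15%, and 29 windows, or 0.0883%, held it 3 or more times. The looser pattern CANNTG, which includes CACGTG, was found in 72.3% of all windows, 5 times in Sohlh1 and once in Sohlh2. GTAAACA, a forkhead motif searched on both strands, was in none of the 6 windows and in 3.65% of all. A match is a description of these letters and does not show that a factor binds there.

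The promoters of Bnc1 and Glis3, whose transcripts were lower in mSSC, are shown for a different feature, their density of CpG, the dinucleotide at which mammalian DNA is methylated. Bnc1 lies on the minus strand at chr7:81992250-81992549 and Glis3 on the minus strand at chr19:28680028-28680327. Here each CG is in capitals.
Bnc1: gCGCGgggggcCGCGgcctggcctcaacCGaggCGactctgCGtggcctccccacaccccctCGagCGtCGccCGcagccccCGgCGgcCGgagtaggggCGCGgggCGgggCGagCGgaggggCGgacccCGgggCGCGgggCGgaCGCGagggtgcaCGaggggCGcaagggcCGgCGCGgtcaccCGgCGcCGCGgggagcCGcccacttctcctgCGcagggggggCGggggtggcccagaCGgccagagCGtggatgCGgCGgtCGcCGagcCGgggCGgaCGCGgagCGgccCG
Glis3: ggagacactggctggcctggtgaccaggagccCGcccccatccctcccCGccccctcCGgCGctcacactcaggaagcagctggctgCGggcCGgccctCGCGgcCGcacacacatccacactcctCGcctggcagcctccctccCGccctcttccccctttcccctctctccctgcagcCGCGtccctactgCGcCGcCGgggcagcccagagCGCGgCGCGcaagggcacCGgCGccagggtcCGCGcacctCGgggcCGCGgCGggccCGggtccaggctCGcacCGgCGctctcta
Bnc1 held 50 CpG in 300 bases, more than 99.1% of the windows in the table, and Glis3 held 32, more than 90.5%. Foxo1, whose main probe set did not pass in any comparison, held 31. Sohlh1 held 14, Sohlh2 17 and Neurog3 19, against a median of 7 over all windows. Methylation was not measured in these samples.

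Values below are log2 signals, so that 1 unit is a 2-fold step, and differences are between group means ± SE with n = 2 arrays per group. The SE of a difference draws on the spread within all 3 groups, which limma moderates with the spread over all genes. The lower quartiles of the 6 arrays were 4.23 to 4.38, and a gene near that level is close to background. No fold is given against a group within about 1 unit of that level, and the log2 difference there is the measured one, whose true size can be larger. Calls are those of limma at 0.05 after Benjamini-Hochberg adjustment across the 18194 genes. The medians of the 6 arrays lay between 5.83 and 5.93. SSC replicate 1 stood apart in its control probes: its beta-actin control read 0.89 higher at the 3′ than at the 5′ end, a measure of RNA quality. The other arrays read 0.12 to 0.61 higher, with mSSC replicate 1 at 0.61 and mSSC replicate 2 at 0.12. Signals of different probe sets are not compared in level with each other.

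Between mSSC and SSC, 6 of the 9 genes fell in mSSC, none rose and 3 did not pass. Over all genes 10.6% were called lower in this comparison and 18.8% in either direction. The median difference of the 9 was -3.11, against 0.077 over all genes. Zbtb16, Bnc1, Sohlh1, Glis3 and Dmrt1 fell by 3 log2 units or more, Taf4b fell by less, and Foxo1, Sohlh2 and Neurog3 did not pass. Both mSSC arrays lay below both SSC arrays in 7 of the 9, where 26.3% of all genes did. Against iSSC the same 6 genes fell in mSSC, with a median of -3.13 for the 9 and -0.008 over all genes, where 9.60% of genes were called lower and 17.1% in either direction. Both mSSC arrays lay below both iSSC arrays in 8 of the 9, and in 33.2% of all genes. Both comparisons use the same mSSC arrays, so the second is no independent repeat of the first. The count over all genes in mSSC against SSC was 3425, and it was 2146 without SSC replicate 1, 2116 without mSSC replicate 1 and 1966 without either iSSC array. The count in mSSC against iSSC, 3117, was 604 and 771 without iSSC replicates 1 and 2, and 1954 without mSSC replicate 1. Leaving out any 1 array ended none of the 6 calls in mSSC against SSC. In bulk samples such as these, fewer cells of a type and less RNA per cell cannot be told apart.

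**Figure D1:**
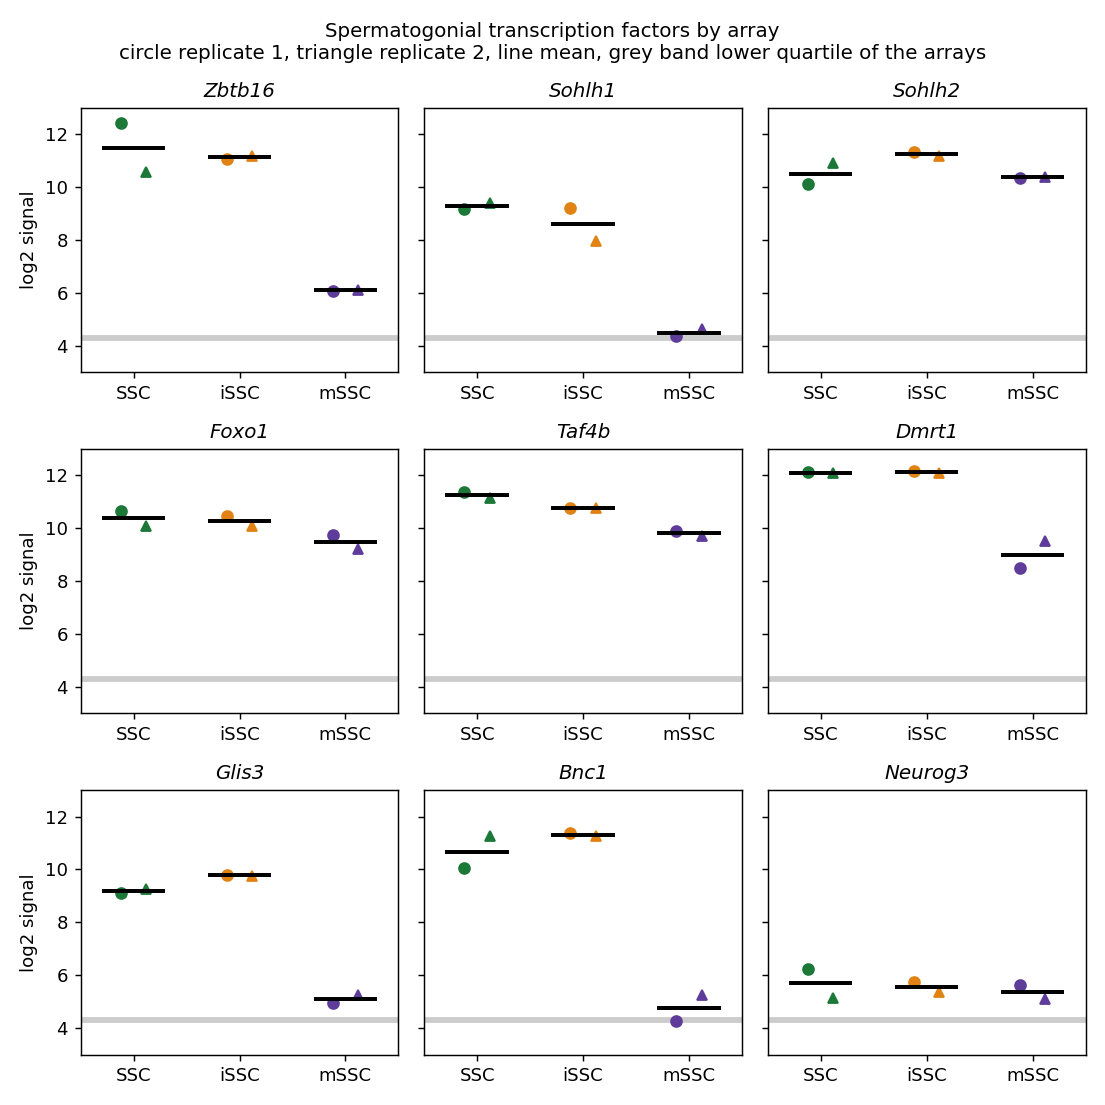
Log2 signal (vertical axis) of the 9 genes in the 2 arrays of SSC, iSSC and mSSC, with the line at the group mean and the grey band at the lower quartiles of the arrays, 4.23 to 4.38. Sohlh1 and Bnc1 reached the band in mSSC, Sohlh2 and Foxo1 stayed above 9 in every array, and Neurog3 read 5.12 to 6.23.

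Zbtb16, the zinc finger repressor, measured 12.41 and 10.56 in SSC, 11.07 and 11.17 in iSSC, and 6.07 and 6.11 in mSSC. The SSC arrays enclosed the iSSC values, and both mSSC arrays were far below all others but still above the array median. The fall was -5.39 ± 0.55 against SSC (adjusted p = 0.0027) and -5.02 ± 0.55 against iSSC (adjusted p = 0.0036), the latter a 32.5-fold difference. The size against SSC depended on the SSC array: it was -4.47 without SSC replicate 1 and -6.31 without SSC replicate 2. The excess of SSC replicate 1 was seen in this probe set only. A second probe set of Zbtb16 read 8.51 and 8.39 in SSC, 8.40 and 8.41 in iSSC, and 3.70 and 4.55 in mSSC, which is close agreement between replicates outside mSSC. The third read 7.64 and 7.95 in SSC, 7.21 and 7.59 in iSSC, and 5.34 and 4.38 in mSSC. Fitted over all 34958 probe sets with 1 symbol, these 2 fell by 4.32 ± 0.31 and 2.94 ± 0.36 in mSSC against SSC (limma adjusted p = 0.0029 and 0.0091).

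Glis3 and Bnc1 were high in SSC and iSSC and low in mSSC. Glis3 measured 9.10 and 9.27 in SSC, 9.80 and 9.75 in iSSC, and 4.95 and 5.26 in mSSC. Replicates lay within 0.31 of each other and the mSSC arrays were far below the rest. The measured difference was -4.08 ± 0.22 against SSC (adjusted p = 0.00052) and -4.67 ± 0.22 against iSSC (adjusted p = 0.00037). Bnc1 measured 10.05 and 11.27 in SSC, 11.39 and 11.25 in iSSC, and 4.28 and 5.24 in mSSC, with mSSC replicate 1 inside the range of the lower quartiles. Its measured difference was -5.90 ± 0.48 against SSC (adjusted p = 0.0014) and -6.56 ± 0.48 against iSSC (adjusted p = 0.0013), with the mSSC level too close to background to fix its size.

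Dmrt1, the gatekeeper of meiosis, stayed well above background in mSSC. It measured 12.13 and 12.07 in SSC, 12.15 and 12.10 in iSSC, and 8.49 and 9.50 in mSSC. The 4 SSC and iSSC arrays spanned less than 0.1, while the mSSC arrays were below them and differed by about 1 unit from each other. The fall was 8.61-fold against SSC (-3.11 ± 0.34, adjusted p = 0.0033) and 8.75-fold against iSSC (-3.13 ± 0.34, adjusted p = 0.0036). Fibroblast markers were also higher in mSSC replicate 2 than in replicate 1, with medians of 9.94 and 7.59, and their part in this result was not tested. The 3′ excess of the beta-actin control was 0.12 in mSSC replicate 2 and 0.61 in replicate 1, and the part of RNA quality was not tested.

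Of the Sohlh pair, Sohlh1 fell in mSSC and Sohlh2 did not pass. Sohlh1 measured 9.15 and 9.41 in SSC, 9.22 and 7.95 in iSSC, and 4.36 and 4.61 in mSSC, at background in the last. It fell, with measured differences of -4.80 ± 0.42 against SSC (adjusted p = 0.0017) and -4.10 ± 0.42 against iSSC (adjusted p = 0.0028), sizes that the background level in mSSC leaves undetermined. Sohlh2 measured 10.11 and 10.89 in SSC, 11.32 and 11.15 in iSSC, and 10.33 and 10.39 in mSSC. Its mSSC values thus lay between the 2 SSC values and below both iSSC values. The difference from SSC was -0.14 ± 0.29 (adjusted p = 0.79), with a 95% interval from -0.85 to 0.57, which leaves out a fall of the size seen in Sohlh1. Against iSSC the difference was -0.87 ± 0.29 (adjusted p = 0.097). It passed in a fit on the 4 iSSC and mSSC arrays alone, at -0.87 ± 0.18 (limma adjusted p = 0.032). Leaving out either SSC array repeats that fit and is no further evidence. Whether the changes of the 2 genes differ was not tested in a model of its own.

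Taf4b, the TFIID subunit, had intermediate values in iSSC. It measured 11.38 and 11.14 in SSC, 10.77 and 10.76 in iSSC, and 9.88 and 9.72 in mSSC, so that no group overlapped another. The fall in mSSC was 2.75-fold against SSC (-1.46 ± 0.21, adjusted p = 0.0073) and 1.95-fold against iSSC (-0.96 ± 0.21, adjusted p = 0.026), while iSSC against SSC was at -0.50 ± 0.21 (adjusted p = 0.30). The call against iSSC was lost when any array of iSSC or mSSC was left out, with adjusted p of 0.17 and 0.16 without iSSC replicates 1 and 2, and 0.067 and 0.095 without mSSC replicates 1 and 2. A second probe set of Taf4b gave -1.33 ± 0.21 for mSSC against SSC (limma adjusted p = 0.016 over all probe sets), and -0.77 ± 0.21 against iSSC, which did not pass (adjusted p = 0.07). The third probe set of Taf4b read 5.51 and 8.98 in SSC, 8.40 and 8.17 in iSSC, and 6.68 and 7.79 in mSSC, and gave -0.01 ± 1.08. With the mean of the 3 probe sets Taf4b was at -0.93 ± 0.38 against SSC (adjusted p = 0.15) and no longer passed. The value of 5.51 in that probe set is from SSC replicate 1, the array with the largest 3′ excess of the beta-actin control, and the part of RNA quality in it was not tested.

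Foxo1 and Neurog3 did not pass in any comparison at their main probe sets. Foxo1 measured 10.65 and 10.10 in SSC, 10.45 and 10.07 in iSSC, and 9.75 and 9.20 in mSSC, so both mSSC arrays were below the others. The difference was -0.90 ± 0.31 against SSC (adjusted p = 0.093, interval from -1.65 to -0.16) and -0.79 ± 0.31 against iSSC (adjusted p = 0.14). Of its 3 other probe sets, a pair were at -1.20 ± 0.46 and -0.73 ± 0.23 against SSC, and the last read 4.57 to 5.36 in all arrays. The latter of the pair passed against iSSC, at -1.04 ± 0.23 (limma adjusted p = 0.039 over all probe sets). Neurog3 measured 6.23 and 5.16 in SSC, 5.74 and 5.38 in iSSC, and 5.65 and 5.12 in mSSC, with the groups fully overlapping. Its second probe set read 3.85 to 4.58, around the lower quartiles. The interval of mSSC minus SSC for Neurog3 ran from -1.27 to 0.65.

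**Figure D2:**
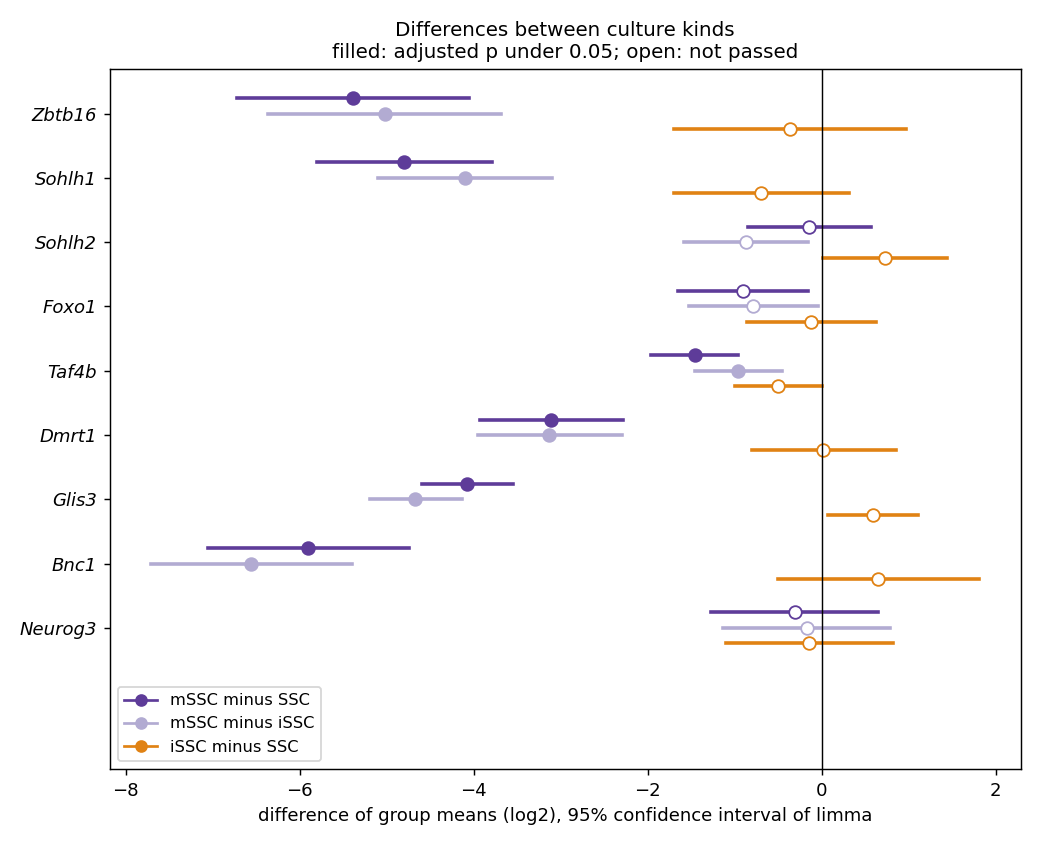
Differences of group means on the log2 scale (horizontal axis) with the 95% confidence interval of limma for each of the 9 genes in 3 comparisons, filled where the adjusted p was under 0.05. In Zbtb16, Sohlh1, Dmrt1, Glis3 and Bnc1 both mSSC comparisons lie at -3.11 or lower, and every interval of iSSC minus SSC lies between -1.70 and 1.81.

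Between iSSC and SSC none of the 9 genes passed in limma, where 2.09% of all genes were called. An unadjusted p under 0.05 was found for 2 of the 9 and for 17% of all genes. The 2 were Glis3 at 0.59 ± 0.22 (adjusted p = 0.25) and Sohlh2 at 0.73 ± 0.29 (adjusted p = 0.28), both with the iSSC arrays above the SSC arrays, as in 32.3% of all genes. The median difference of the 9 was -0.12, and over all genes it was 0.100. Dmrt1 differed least, by 0.02 ± 0.34, with an interval from -0.80 to 0.85. Zbtb16 was at -0.36 ± 0.55, Sohlh1 at -0.70 ± 0.42 and Bnc1 at 0.65 ± 0.48, each with overlapping arrays. For the 6 genes called in mSSC against SSC, the iSSC mean lay at -0.14 to 0.34 of the way from SSC to mSSC, with Glis3 at the low end and Taf4b at the high end. The count over all genes here was 381, and it was 0 without SSC replicate 1 or without either iSSC array, with 2527, 1357 and 2000 genes at an unadjusted p under 0.05 in turn without SSC replicate 1, iSSC replicate 1 and iSSC replicate 2. The absence of calls among the 9 genes in this comparison therefore says little about small differences.

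**Figure D3:**
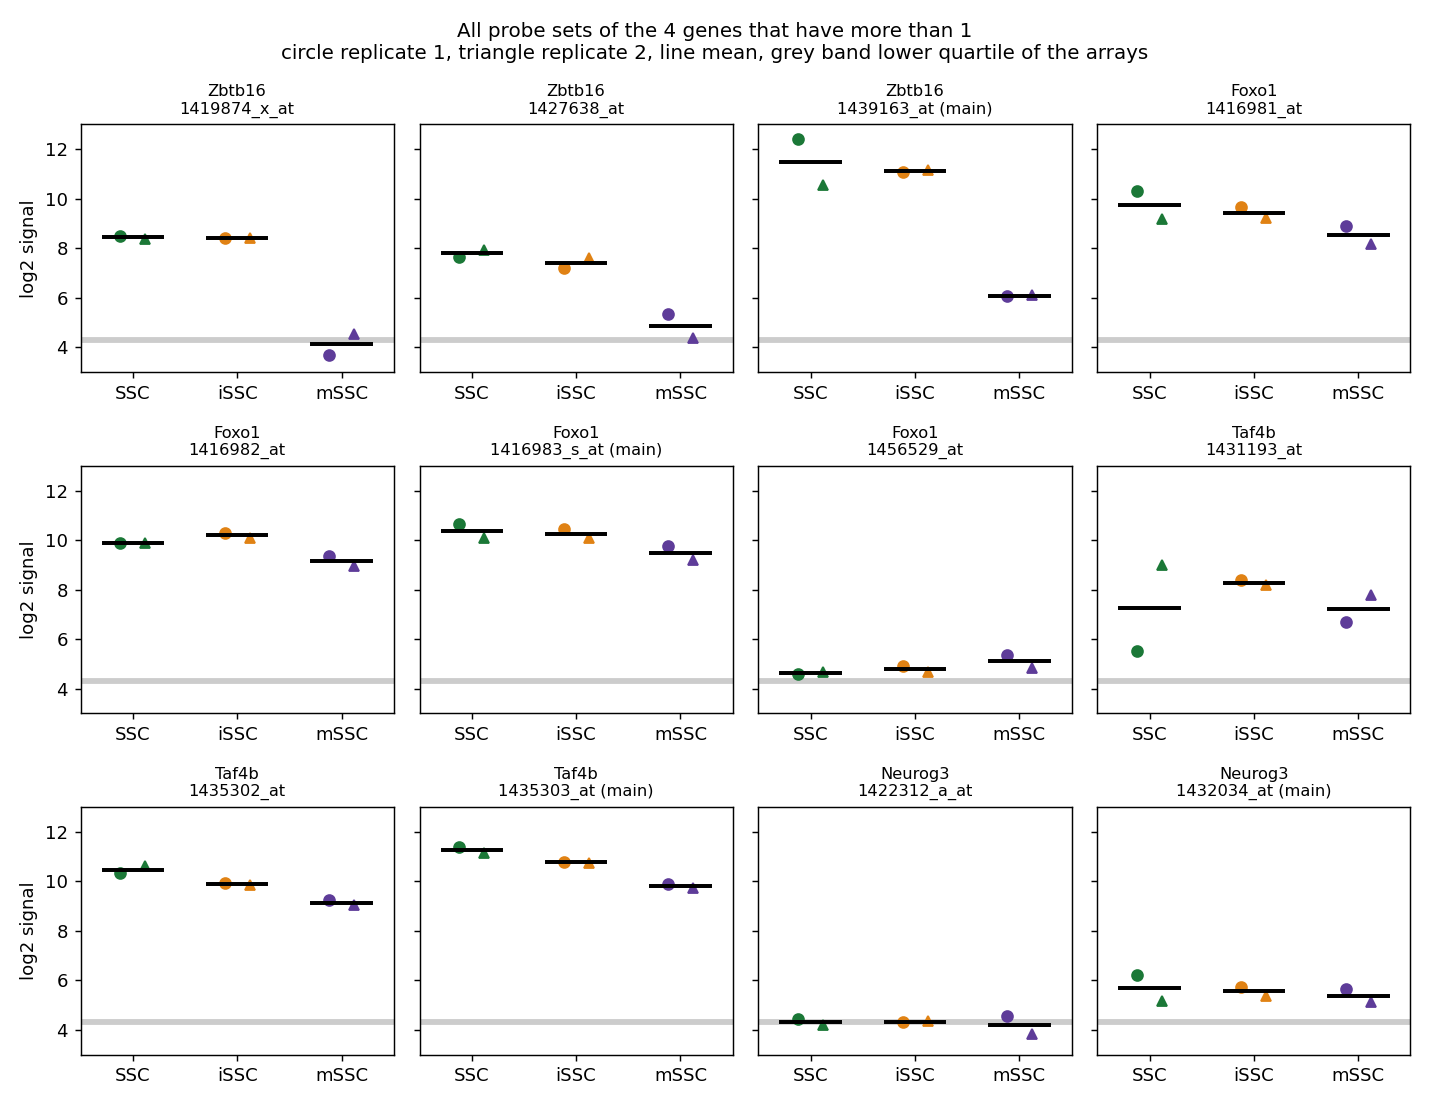
Log2 signal (vertical axis) of all probe sets of Zbtb16, Foxo1, Taf4b and Neurog3 by array, with the line at the group mean and the grey band at the lower quartiles of the arrays. All 3 probe sets of Zbtb16 were lowest in mSSC, while the Taf4b probe set of widest spread ran from 5.51 to 8.98 within SSC.

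Of 15 measured paralogs of the 9 genes 2 fell, none rose and 13 did not pass in mSSC against SSC, with a median of -0.21. The 2 are 13.3% of the list, near the 10.6% called lower over all genes. Dmrt3, another DM-domain factor, fell by 2.01 ± 0.38 (adjusted p = 0.016). Bnc2, the relative of Bnc1, fell by 2.90 ± 0.73 (adjusted p = 0.039), from 11.13 and 10.41 in SSC to 6.66 and 9.08 in mSSC, where replicate 2 was the higher array, as it was for the fibroblast markers. Taf4, the broadly used counterpart of Taf4b, read 7.97 and 7.99 in SSC, 7.89 and 7.92 in iSSC, and 8.35 and 8.12 in mSSC, a difference of 0.25 ± 0.20 between mSSC and SSC. Foxo3 and Foxo4 were at -0.61 ± 0.43 and -0.14 ± 0.35, Glis1 and Glis2 at -0.22 ± 0.20 and -0.27 ± 0.29, and Zbtb32 at 0.14 ± 0.39. Neurog1 and Neurog2 were at 0.50 ± 0.20 and 0.42 ± 0.23, with Neurog2 at 3.30 to 4.02, below the lower quartiles, in all 6 arrays. Among the other DM-domain genes Dmrtb1 was at -0.46 ± 0.51, Dmrtc2 at -0.79 ± 0.39, Dmrta2 at 0.84 ± 0.28, and Dmrt2 and Dmrta1, both near or below the lower quartiles in mSSC, at -0.21 ± 0.23 and 0.08 ± 0.22.

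Other transcription factors known from spermatogonia moved in both directions. Of 31 such genes 11 fell, 10 rose and 10 did not pass in mSSC against SSC, with a median of -0.20. Called genes were 67.7% of this list, against 18.8% of all genes. Lhx1, a target of Gdnf signalling, read 7.21 and 7.25 in SSC, 8.55 and 8.63 in iSSC, and 5.27 and 5.41 in mSSC. It thus rose in iSSC against SSC by 1.36 ± 0.20 (adjusted p = 0.035) and fell in mSSC against SSC by 1.89 ± 0.20 (adjusted p = 0.0029). Prdm14, Utf1 and Tfap2c, which also act in pluripotent or primordial germ cells, rose in mSSC by 4.99 ± 0.35, 3.83 ± 0.29 and 4.40 ± 0.50 (adjusted p = 0.0010, 0.0012 and 0.0038). In SSC Prdm14 read 3.65 and 3.33, below the lower quartiles, and Tfap2c 5.24 and 4.98, so these sizes are as measured from a level near background. In iSSC against SSC 1 of the 31 rose, Lhx1, and 1 fell, Tcf4, a helix-loop-helix factor, by 1.90 ± 0.27 (adjusted p = 0.033). Both together are 6.45% of the list, against 2.09% of all genes. Calls in iSSC against SSC depended on single arrays, as given above.

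In mSSC against SSC, markers of undifferentiated spermatogonia went both ways, and those of differentiating ones fell or did not pass. Ccnd2 was on both of these lists. Of 20 genes of undifferentiated spermatogonia that are not transcription factors 8 fell and 5 rose in mSSC against SSC, with a median of -0.66. Called genes were 65% of that list, against 18.8% of all genes. Gfra1 and Ret, which form the Gdnf receptor, fell (-4.27 ± 0.31 and -2.8 ± 0.24), whereas Cdh1, an adhesion protein that embryonic stem cells also carry, rose by 5.69 ± 0.34 and Pla2g1b, a phospholipase, by 3.13 ± 0.23 (adjusted p from 0.00064 to 0.0016 for these 4). Of 17 genes of differentiating spermatogonia 6 fell, none rose and 11 did not pass, with a median of -1.0. The 6 are 35.3% of the list, where 10.6% of all genes were called lower. Tex101 and Stk31, both germ cell genes, fell by 4.50 ± 0.35 and 4.99 ± 0.45, Ccnd2, a D-type cyclin, by 4.51 ± 0.42 and Sox3 by 2.74 ± 0.32 (adjusted p from 0.0013 to 0.0039). Against iSSC, 5 of the 17 fell in mSSC and 1 rose, Ly6k, by 1.58 ± 0.41 (limma adjusted p = 0.046). Together they are 35.3% of the list, against 17.1% of all genes. In iSSC against SSC limma called 0 of the 20 and 0 of the 17, with 8 and 4 at an unadjusted p under 0.05. Over all genes 2.09% were called there, and 17% had an unadjusted p under 0.05.

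Genes linked to the Sohlh pair included 4 lower and 2 higher among 15 in mSSC against SSC, with a median of 0.35, and many of them are oocyte genes close to background here. Called genes were 40% of the list, against 18.8% of all genes. Figla, an oocyte helix-loop-helix factor, read 8.33 and 8.30 in SSC, 9.59 and 8.18 in iSSC, and 5.51 and 5.39 in mSSC, and fell by 2.87 ± 0.44 (adjusted p = 0.0089). Gfra1 and Sox3, given above, were also among those that fell, and Pou5f1, which encodes Oct4, rose by 3.68 ± 0.44 (adjusted p = 0.0042). Kit, the receptor of differentiating spermatogonia, read 7.18 and 10.31 in SSC, 7.08 and 8.66 in iSSC, and 9.66 and 10.28 in mSSC, and its difference of 1.23 ± 1.01 (adjusted p = 0.46) was within the spread of SSC. Kit was chosen after its values were seen.

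Around Foxo1, 5 of 22 targets and Pi3k-Akt pathway genes rose and 5 fell in mSSC against SSC, with a median of -0.09. Called genes were 45.5% of this list, against 18.8% of all genes. Klf2, a zinc finger factor, rose by 3.15 ± 0.45 (adjusted p = 0.0072) and Txnip, a regulator of glucose uptake, by 1.42 ± 0.24 (adjusted p = 0.012). Akt1, the kinase that inactivates Foxo1, fell by 1.99 ± 0.33 (adjusted p = 0.012) and Pik3ca, the catalytic subunit upstream of it, by 1.33 ± 0.22 (adjusted p = 0.011). Arrays measure transcripts and not the location of Foxo1 protein. Among the partners of Taf4b in TFIID, 2 of 16 fell and 1 rose in mSSC against SSC, with a median of -0.18, and these 18.8% equal the share called over all genes. Taf9b fell by 3.74 ± 0.51 and Taf7l, a germ cell form of Taf7, by 3.14 ± 0.47 (adjusted p = 0.0065 and 0.0083), Taf3 rose by 1.13 ± 0.29 (adjusted p = 0.041), and Taf6 was at -0.83 ± 0.24 (adjusted p = 0.060). No gene of the Foxo1 and TFIID lists was called in iSSC against SSC by limma, with 8 of 22 and 3 of 16 at an unadjusted p under 0.05. Of all genes 2.09% were called there, and 17% had an unadjusted p under 0.05.

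For each of the 5 genes whose arrays spanned at least 2 units, the 3 genes of most similar profile were found by the Euclidean distance of their log2 values over the 6 arrays, each centred on its own mean. Dmrt1 was closest to Cd82, a tetraspanin, at a distance of 0.41, and then to Sorbs2 and Mgst1 (0.46 and 0.57). Glis3 was nearest to Tsc22d3, a glucocorticoid-induced gene, at 0.49, followed by Smoc2 and Gfra1 (0.58 and 0.59). Sohlh1 was nearest to Nxf2, an RNA export factor of germ cells, at 0.67, and then to Sema6d and Clic6 (0.78 and 0.85). Bnc1 had looser neighbours, Zic1 at 0.92, Ccl9 at 1.51 and 4930550L24Rik at 1.65, and Zic1 shared its low SSC replicate 1, with 8.61 and 10.60 in SSC. The neighbours of Zbtb16 were Clca3a1 at 0.86 and the myeloid lectin receptor genes Clec4d and Clec4n at 1.12 and 1.26. Both lectin genes were higher in SSC replicate 1 than in replicate 2 (10.93 and 10.02 for Clec4d, 10.42 and 8.92 for Clec4n), as the main probe set of Zbtb16 was and its other probe sets were not by more than 0.2. All of these distances rest on 6 arrays, and the large step between mSSC and the rest dominates them.

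Cell type markers moved between the same samples. For comparison, 18.8% of all genes were called in mSSC against SSC and 2.09% in iSSC against SSC. The 6 measured germ cell markers all fell in mSSC against SSC and 7 of 7 pluripotency markers rose, with Nanog at 3.25 to 3.62, below the lower quartiles, in SSC and iSSC. These 6 germ cell markers are all on the lists of undifferentiated or differentiating spermatogonia above. On the undifferentiated list 5 of 20 genes rose in mSSC against SSC, and the 6 are no separate evidence. In iSSC against SSC limma called 0 of the 6 and 0 of the 7, with median differences of 0.19 and 0.17. An unadjusted p under 0.05 was found for 3 and 2 of them, and for 17% of all genes. The 3 germ cell markers went in different directions: Dazl was at -1.44 ± 0.36, Stk31 at -1.30 ± 0.45 and Ret at 1.11 ± 0.24. SSC also held strong somatic signal. The log2 of the summed signal of 10 macrophage markers was 15.16 to 15.64 in SSC, 13.34 to 14.13 in iSSC and 9.32 to 10.33 in mSSC. All 10 fell in mSSC against SSC and 6 fell in iSSC against SSC, where calls depended on single arrays, as given above. C1qb, a complement chain, and Ptprc, the leukocyte phosphatase, were at 3.84 to 4.14 in mSSC, below the lower quartiles. Summed fibroblast markers were at 15.81 to 16.39, 13.78 to 14.19 and 12.98 to 13.93 in the 3 kinds, with 8 of 10 lower in mSSC against SSC and 1 lower in iSSC. For 9 Sertoli cell markers the sums were 13.43 to 13.72, 10.95 to 11.94 and 9.99 to 10.28, with 6 and 3 lower. Leydig cell markers summed to 9.35 to 10.97, 7.80 to 10.99 and 8.09 to 8.18 with no call among 4, smooth muscle markers to 12.03 to 14.43, 10.84 to 11.41 and 10.21 to 10.38 with 3 of 6 lower in mSSC, and endothelial markers to 7.40 to 7.60, 7.83 to 8.32 and 8.65 to 10.12 with 2 of 5 higher. Taken over the genes of each list, the median of iSSC minus SSC was -2.74 for macrophage and -2.32 for fibroblast markers. It was -0.12 for the 9 transcription factors. Their median level by array was 10.11 and 10.56 in SSC and 10.77 and 10.76 in iSSC. For mSSC minus iSSC the median difference of the macrophage markers was -3.27, and the part of somatic cells in the mSSC results was not tested.

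**Figure D4:**
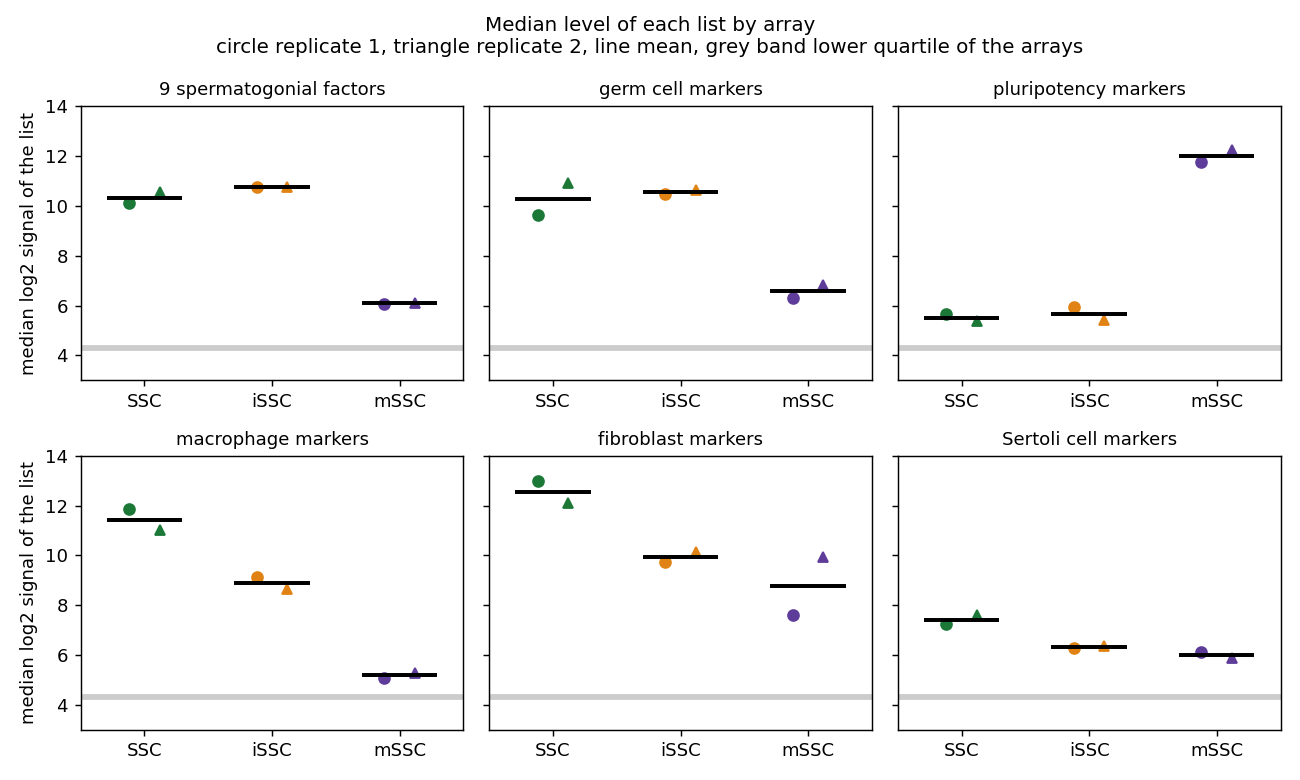
Median log2 signal (vertical axis) of the 9 transcription factors and of 5 marker lists by array, with the line at the group mean and the grey band at the lower quartiles of the arrays. Between SSC and iSSC the macrophage and fibroblast medians were lower in iSSC while the median of the 9 factors stayed between 10.11 and 10.77, and in mSSC it was at 6.07 and 6.11.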

How the data were processed

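The samples were 6 Affymetrix arrays, 2 each of SSC, iSSC and mSSC. Per the labels, 10 µg of total RNA was amplified with NuGEN kits before hybridization. The authors deposited log2 signals; RMA, without a version, is the method that the submitters' processing notes name. RMA quantile-normalizes, so a change shared by most genes is not visible. Of 45101 probe sets 34958 had 1 symbol, 932 several and 9211 none; the brightest probe set on average stood for each of 18194 genes, with no filter. The 3 comparisons used limma 3.58.1 (R 4.3.3), with 1 mean per kind fitted to all 6 arrays (3 residual degrees of freedom before moderation). Variances were then moderated over all genes (eBayes), which also sets the SE and the intervals. Tests were 2-sided, with Benjamini-Hochberg adjustment over all genes. This fit was tested on simulated data with large planted shifts and independent noise only, which does not cover small differences. The number of arrays limits the precision. From each list described other than the cell type markers, the 4 genes of smallest p in mSSC against SSC were named. Also named were any called in iSSC against SSC, all paralogs and the 3 nearest genes of each variable member. Single cell type markers were named after their values were seen. The members and lists were chosen with earlier results of these data known. Probe sets of the members were also fitted over all single-symbol probe sets, an alternative chosen after seeing the data.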

Additional observations from a re-analysis of the deposited data

How the results depend on the processing

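Alternatives were a replicate block, fits on 4 arrays, trended and robust variances, brighter genes only (Neurog3 was then not tested), quantile normalization, median centring, the mean or the most variable probe set of a gene, and leaving out each array. Of 402 values of the 9 genes 376 kept their direction and side of the threshold. Some of these fits coincide. For 2 groups, a fit on their 4 arrays gives the same values as leaving out either array of the third. Sohlh1, Sohlh2, Dmrt1, Glis3 and Bnc1 have 1 probe set each, so both probe set choices leave their values as in the main fit. The most variable probe set of Zbtb16 and of Neurog3 is also the main one. Such repeats are counted separately in the 402 values and in the 15 alternatives named next. Zbtb16, Sohlh1, Dmrt1, Glis3 and Bnc1 stayed called against SSC and against iSSC in all 15 alternatives, with adjusted p up to 0.039. Median centring moved the median of all genes by at most 0.07 and changed no call of the 9. The causes of the changes below were not tested.

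The replicate numbers were not taken to pair the samples: deviations of same-numbered arrays from their group means correlated at 0.120, 0.068 and 0.171 in the 3 pairs of groups. With the replicate block Foxo1 passed at -0.90 against SSC and -0.79 against iSSC (adjusted p = 0.034 and 0.049), the count of calls in iSSC minus SSC was 148, and no other call of the 9 genes changed. In fits on 4 arrays mSSC minus SSC had 1966 calls and Sohlh2 passed at -0.87 in mSSC minus iSSC. Quantile normalization put Dmrt1 at -0.04 in iSSC minus SSC. With the mean of probe sets Taf4b no longer passed, at -0.93 against SSC and -0.93 against iSSC, Foxo1 was at 0.02 in iSSC minus SSC, and that comparison had 29 calls. With the most variable probe set Taf4b was at -0.0078 against SSC, -1.05 in mSSC minus iSSC and 1.04 in iSSC minus SSC, which had 113 calls.

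Leaving out 1 array gave 1966 to 3462 calls in mSSC minus SSC, 604 to 3724 in mSSC minus iSSC, and 0 to 503 in iSSC minus SSC (limma, with 1357 to 2527 genes at an unadjusted p under 0.05 where the count was 0). In mSSC minus SSC, Sohlh2 ranged from -0.52 to 0.25, above 0 without SSC replicate 2, and Neurog3 from -0.84 to 0.23, above 0 without SSC replicate 1. In iSSC minus SSC, Zbtb16 ranged from -1.29 to 0.56, Foxo1 from -0.39 to 0.16, Dmrt1 from -0.0016 to 0.05 and Neurog3 from -0.67 to 0.40, none of them called. In mSSC minus iSSC, Taf4b ranged from -1.04 to -0.88, Sohlh2 from -0.96 to -0.78 and Neurog3 from -0.43 to 0.09. Where a group was left with 1 array, its spread was taken from the other groups. Low signal limits Neurog3 (5.12 to 6.23) and the sizes of differences against levels near background.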
